A study of Mus musculus with 18 samples.

Results

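The comparison sets 2 substrates of 1 enzyme against each other in cells under TGFβ: 3 libraries of mouse tubular epithelial cells given TGFβ with nicotinamide (TGFβ+NAM) against 3 libraries given TGFβ with S-adenosyl methionine (TGFβ+SAM), 6 of the 18 libraries of the series. The members were taken from the sample titles, and every gene that passed a filter on low counts was tested, 13469 in all. Both groups received TGFβ at 10 ng/mL for 48 h. NAM was given at 1 mM and SAM at 0.5 mM, so the doses differ and the comparison is between these 2 treatments and not between equal amounts. The other libraries were 3 with TGFβ alone, 3 with NAM, 3 with SAM and 3 untreated controls, with the same doses and time. All groups are 1 line, im-TEC, conditionally immortalized cells that grow in interferon-γ at a permissive temperature. Per the labels, cells had 7 days at a higher temperature without interferon-γ ahead of the experiment, in every group.

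Nicotinamide N-methyltransferase (NNMT) moves the methyl group of SAM onto nicotinamide. Nicotinamide is also the raw material from which cells remake NAD, and SAM is the methyl donor for nearly all methylation of DNA, RNA, histones and small molecules. TGFβ drives tubular cells towards a contractile, matrix-producing state. Type I and type II interferons switch on genes of antiviral defence and antigen presentation.

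Reads assigned to genes numbered 5611708 to 6512282 in the TGFβ+NAM libraries and 5744088 to 6292735 in the TGFβ+SAM libraries. Reads outside genes, ambiguous reads, the mitochondrial share and the number of genes detected gave exact two-sided permutation p-values of 0.4 or more between both groups, where 3 against 3 libraries allow no p below 0.1. TGFβ+NAM replicate 1 stood apart from its group on the third principal component of all libraries, at 30.44 against -15.86 and -14.32, together with NAM replicate 3 at 31.9. TGFβ+SAM replicate 3 stood apart on the second component, at -20.24 against -39.47 and -39.6. Both SAM groups carry library numbers that follow a gap of 6 after those of the other 4 groups. If preparation followed these numbers, it cannot be told apart from SAM where a SAM group is set against one without SAM. Of the tubule list, 12 of 29 genes were tested. Aqp1, a water channel of the proximal tubule, was present, whereas Slc34a1, Hnf4a and Umod had no reads in either group, nor had the epithelial genes Epcam and Cldn3.

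Markers of other cell types were read as lists. The fibroblast markers summed to 76.8 to 103 CPM (read counts scaled to library size) in TGFβ+NAM and 37.8 to 50.5 CPM in TGFβ+SAM. Most of each sum was the collagen Col1a1, which passed as higher (log2 change 0.96). Only 2 genes of this list of 11 were tested, Col1a1 and Pdgfrb, and Pdgfrb did not pass. Dcn, Lum, Dpt and Thy1 had no reads in either group. The immune markers summed to 110 to 115 CPM in TGFβ+NAM and 112 to 128 CPM in TGFβ+SAM, with Adgre1, Cd3e, Cd79a, Itgam and Tyrobp without reads. Siglecg was higher (log2 change 1.41), and the macrophage genes Csf1r and Cd68 were lower (-0.73 and -1.18), though Cd68 did not pass without TGFβ+NAM replicate 2 (adjusted p = 0.0504). The endothelium markers summed to 1.79 to 3.01 CPM in TGFβ+NAM and 2.95 to 4.43 CPM in TGFβ+SAM, with Pecam1 and Cdh5 without reads. The podocyte markers summed to 453 to 526 CPM in TGFβ+NAM and 447 to 478 CPM in TGFβ+SAM, with Nphs1 without reads. The part of these markers in the results was not tested. In bulk libraries, fewer cells of a kind and less RNA per cell cannot be told apart.

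At an adjusted p under 0.05, 1097 genes (8.14% of those tested) differed between TGFβ+NAM and TGFβ+SAM. Of these, 602 were higher in TGFβ+NAM (4.47%) and 495 lower (3.68%). Counts of list members below are to be read beside these shares of all tested genes. In these lists a rise or fall is of TGFβ+NAM relative to TGFβ+SAM, and not of either group against TGFβ alone. A change of at least 2-fold was passed by 165 of the higher and 73 of the lower genes, and the median over all tested genes was 0.00 on the log2 scale. All 3 TGFβ+NAM libraries lay above all 3 TGFβ+SAM libraries in 582 of the 602 higher genes, and below them in 456 of the 495 lower genes; among all tested genes, 11.5% lay above and 10.5% below. The higher genes were led by the interferon response and the lower genes by the calcium-binding protein S100g and the Notch ligand Jag2.

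**Figure D1:**
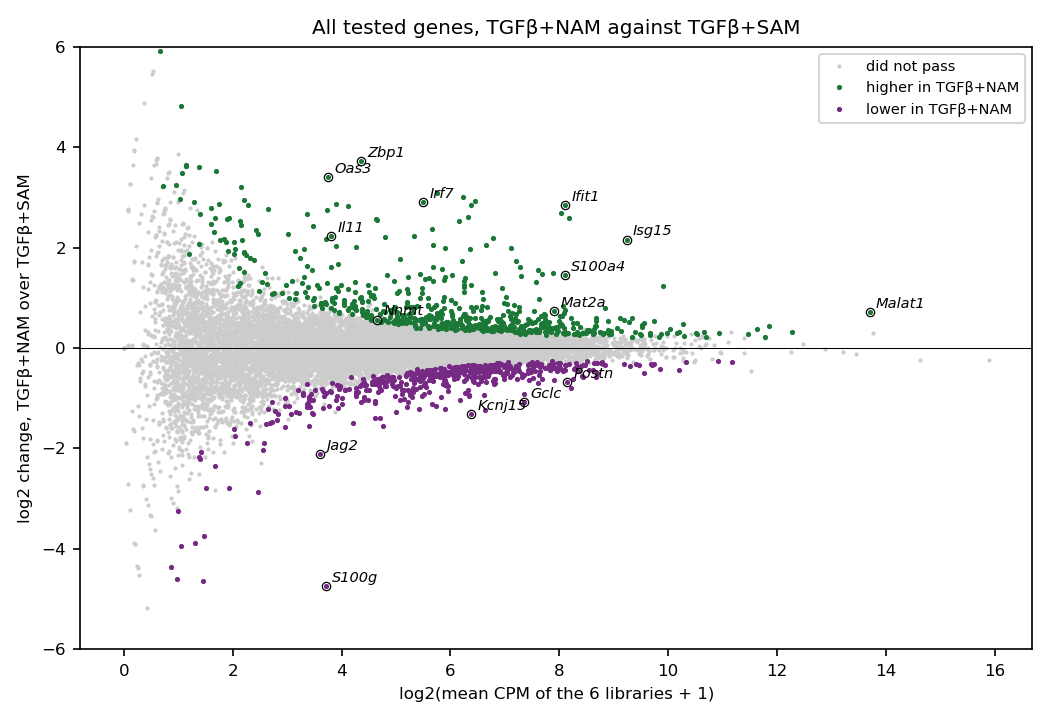
Each point is a tested gene, with log2(mean CPM of the 6 libraries + 1) on the horizontal axis and the fitted log2 change of TGFβ+NAM over TGFβ+SAM on the vertical axis; green points (602) and purple points (495) passed, grey points did not, and 3 genes lie outside the axes. The named interferon genes stand between 2 and 4 on the vertical axis, and S100g stands at -4.74.

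The interferon response held most of the largest rises, and the promoters of the leading genes are shown because these genes moved together. Of the 12 leading rises, 9 were on the list of interferon effectors or that of factors and sensors. Trim30d, Ifi203 and Gbp4 were not on these lists, and their promoters were not read. Of the 9 genes, 7 had a promoter window in RefSeq (GRCm38.p6), read as the 250 bases before the start. The motif searched was the core of the interferon-stimulated response element, GAAANNGAAA or its reverse complement TTTCNNTTTC, and 5 of the 7 windows held it, as printed here 5′ to 3′ along the gene with the motif in capitals.
Ifit1 (chr19:34640639-34640888, plus strand): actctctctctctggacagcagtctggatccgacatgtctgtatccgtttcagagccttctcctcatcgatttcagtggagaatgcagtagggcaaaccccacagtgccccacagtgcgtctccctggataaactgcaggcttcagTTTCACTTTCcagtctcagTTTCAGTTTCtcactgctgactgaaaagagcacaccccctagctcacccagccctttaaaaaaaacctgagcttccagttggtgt
Ifit3 (chr19:34583279-34583528, plus strand): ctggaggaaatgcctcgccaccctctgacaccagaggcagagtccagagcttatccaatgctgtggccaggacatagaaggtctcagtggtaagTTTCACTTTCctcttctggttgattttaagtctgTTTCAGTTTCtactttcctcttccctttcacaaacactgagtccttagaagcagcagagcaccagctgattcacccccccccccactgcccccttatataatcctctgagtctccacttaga
Ifit3b (chr19:34607707-34607956, plus strand): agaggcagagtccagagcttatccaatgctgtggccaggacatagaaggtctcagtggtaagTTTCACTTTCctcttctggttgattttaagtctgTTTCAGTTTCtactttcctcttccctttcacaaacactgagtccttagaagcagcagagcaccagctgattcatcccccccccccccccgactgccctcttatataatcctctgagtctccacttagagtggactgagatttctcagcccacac
Rsad2 (chr12:26456453-26456702, minus strand): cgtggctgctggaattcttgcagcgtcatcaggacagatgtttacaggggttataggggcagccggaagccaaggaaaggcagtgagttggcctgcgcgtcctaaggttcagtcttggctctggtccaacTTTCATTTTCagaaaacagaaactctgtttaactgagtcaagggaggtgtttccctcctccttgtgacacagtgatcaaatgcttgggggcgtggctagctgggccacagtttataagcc
Oas3 (chr5:120777660-120777909, minus strand): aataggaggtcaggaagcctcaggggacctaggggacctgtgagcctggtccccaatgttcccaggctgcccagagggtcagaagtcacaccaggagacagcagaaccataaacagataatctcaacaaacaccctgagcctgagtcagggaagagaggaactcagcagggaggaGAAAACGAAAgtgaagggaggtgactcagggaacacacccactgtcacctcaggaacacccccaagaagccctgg
Ifit1, Ifit3 and Ifit3b each held the motif 2 times, and the windows of Irf7 and Phf11d held no match. Shares were counted over genes with a window, where a gene held the motif if any of its windows did. The motif was held by 19 of 32 interferon effectors (59.4%), 45 of 463 genes called higher (9.72%) and 10 of 395 called lower (2.53%). Most effectors are also among the genes called higher, as 39 of 40 tested effectors were, so these shares are not separate. The motif was held by 288 of 9296 tested genes (3.10%) and by 936 of all 27025 genes with a window (3.46%). Counted by window, the share over all 32851 windows was 2.98%. A match is a run of letters and not a shown binding site.

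Interferon effectors, the genes that carry out antiviral defence, rose in TGFβ+NAM relative to TGFβ+SAM as a group. Of 42 listed, 40 were tested and 39 passed as higher, with a median log2 change of 2.11; between 35 and 39 passed with any 1 of the 6 libraries left out. The exception was Mx1, at 2.76 with an adjusted p of 0.0621, and Ifi44l and Slfn5 were below the low-count filter. No effector passed as lower by edgeR, by DESeq2 or at an unadjusted p under 0.05. In all 40 tested genes the TGFβ+NAM libraries lay above the TGFβ+SAM libraries. The mean of log2(CPM + 1) over the 40 genes was 6.36 to 6.39 in TGFβ+NAM libraries and 4.35 to 4.72 in TGFβ+SAM libraries. It was 6.51 to 6.53 in libraries with TGFβ alone, 5.10 to 5.16 with NAM alone, 3.73 to 3.997 with SAM alone and 5.07 to 5.27 in controls, so that the TGFβ+SAM libraries lay below the untreated ones.

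**Figure D2:**
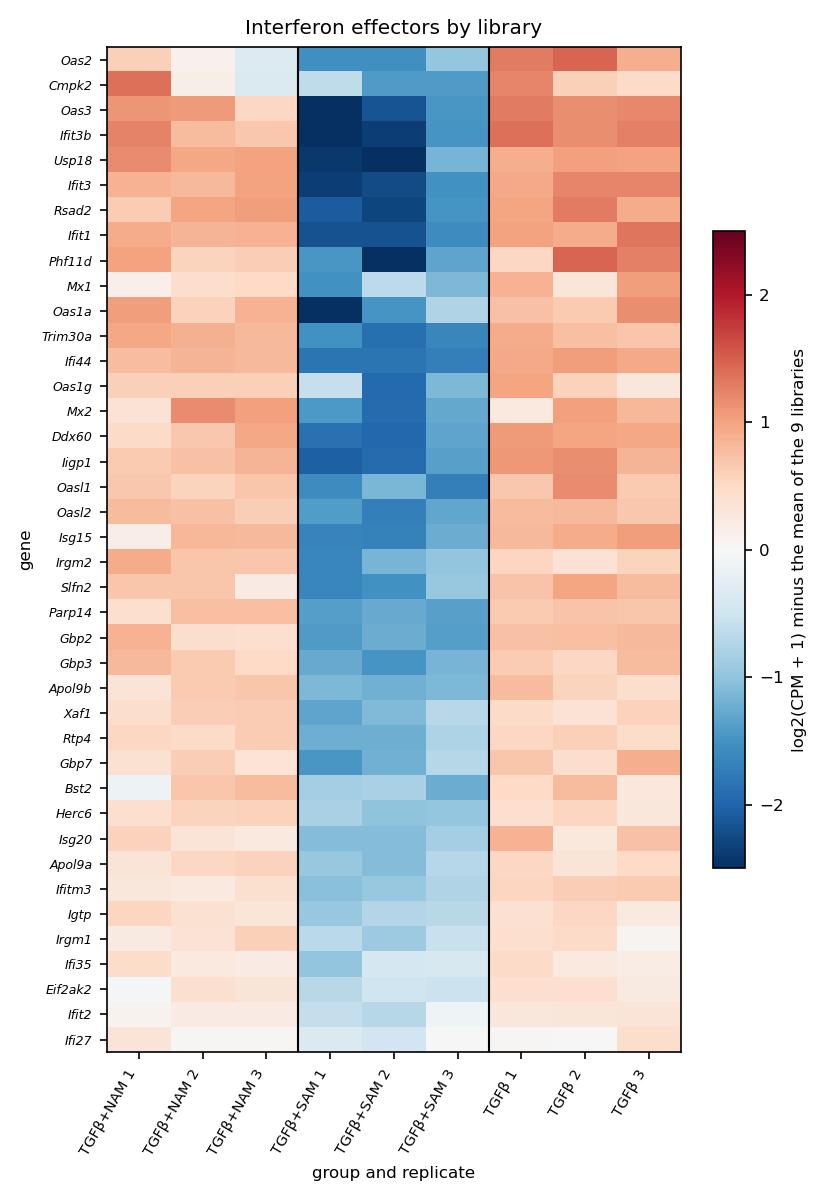
Each cell is log2(CPM + 1) of 1 interferon effector in 1 library minus that gene's mean over the 9 libraries, with genes down the page in order of fitted change and TGFβ+NAM, TGFβ+SAM and TGFβ libraries from left to right. The 3 TGFβ+SAM columns are the blue ones, and replicate 3 is the palest of them for many genes; colours saturate at the ends of the scale.

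Ifit1, which binds foreign RNA at ribosomes, had 499, 475 and 481 CPM in TGFβ+NAM libraries, against 57.0, 56.8 and 87.5 CPM in TGFβ+SAM libraries. The groups were far apart, and the highest TGFβ+SAM library was replicate 3. The fitted log2 change was 2.85 ± 0.14 (SE; adjusted p = 1.1e-18). Ifi44 stood at 482, 508 and 496 CPM in TGFβ+NAM and at 79.7, 79.0 and 86.4 CPM in TGFβ+SAM, with 3 libraries of each group close together (2.60 ± 0.11, adjusted p = 5.3e-21). Isg15, a ubiquitin-like modifier that is attached to proteins during the response, had 714, 1133 and 1114 CPM in TGFβ+NAM and 198, 197 and 266 CPM in TGFβ+SAM. TGFβ+NAM replicate 1 was the lowest of its group and still above every TGFβ+SAM library (2.16 ± 0.15, adjusted p = 1.2e-14).

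Usp18, which removes Isg15 from proteins and dampens the receptor, had 144, 124 and 126 CPM in TGFβ+NAM and 10.99, 10.1 and 27.6 CPM in TGFβ+SAM (3.00 ± 0.20, adjusted p = 9.1e-15). Rsad2, which makes a chain-terminating nucleotide against viruses, had 120, 154 and 160 CPM in TGFβ+NAM and 17.5, 14.8 and 27.2 CPM in TGFβ+SAM (2.86 ± 0.17). Oas3, one of the enzymes that make the signal for RNA decay, had 26.1, 25.3 and 16.9 CPM in TGFβ+NAM and 0.886, 1.79 and 3.57 CPM in TGFβ+SAM (3.41 ± 0.31). In each of these 3 genes the third TGFβ+SAM library was the highest of its group. Over the 39 effectors that passed, replicate 3 was the highest TGFβ+SAM library in 30. The membrane protein Ifitm3, which blocks viral entry, was more modest in fold and high in level, at 1312, 1287 and 1438 CPM in TGFβ+NAM and 523, 562 and 638 CPM in TGFβ+SAM (1.23 ± 0.08). Ifit3 and Ifit3b, Oas1a and Oas1g, and Apol9a and Apol9b are near-identical pairs, and how reads were split within each pair is uncertain.

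Among the factors and sensors of the pathway, 12 of 20 tested genes rose and 8 did not pass, with a median of 0.89. Zbp1, a sensor of Z-form nucleic acid, had the largest rise among genes with a mean of at least 5 CPM and no overlap. It had 37.0, 38.1 and 34.3 CPM in TGFβ+NAM and 3.19, 0.652 and 4.34 CPM in TGFβ+SAM, with a log2 change of 3.73 ± 0.32 (adjusted p = 9.7e-12). Irf7, the factor that amplifies the response, had 75.7, 70.3 and 88.1 CPM in TGFβ+NAM and 8.86, 10.4 and 11.8 CPM in TGFβ+SAM (2.90 ± 0.20). Irf7 overlaps Phrf1 on the opposite strand, and the strand setting of the counting is not given. Phrf1, looked up after the values were seen, differed by -0.20 (adjusted p = 0.343). Ddx58, which encodes the RNA sensor RIG-I, rose by 1.496 ± 0.11. The receptor genes Ifnar1 (-0.20, adjusted p = 0.559), Ifnar2 (0.23, 0.27), Ifngr1 (-0.27, 0.161) and Ifngr2 (0.20, 0.427) did not pass, and Ifnb1 was below the low-count filter.

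Genes of MHC class I presentation were higher by smaller amounts. Of 17 tested, 12 rose, with a median of 0.54. The immunoproteasome subunits Psmb8 and Psmb9 changed by 1.01 ± 0.10 and 1.19 ± 0.15. Psmb8 had 178, 166 and 174 CPM in TGFβ+NAM and 85.8, 72.1 and 98.7 CPM in TGFβ+SAM. Tapbp, which loads peptide, rose by 0.85 ± 0.09 and H2-T22, a class I-like molecule, by 1.39 ± 0.15. H2 genes resemble one another and their reads can be shared. B2m, the common light chain, had 3196, 2911 and 3150 CPM in TGFβ+NAM and 2541, 2435 and 2687 CPM in TGFβ+SAM (0.27 ± 0.07); it did not pass without TGFβ+SAM replicate 2 (adjusted p = 0.067). Psmb9 overlaps Tap1 on the opposite strand. H2-T23 (-0.83), Tap2, Tapbpl, Psme2 and Erap1 did not pass.

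Chemokines split. Of 13 tested, 6 rose, and the other 7 did not pass (1 fall passed without TGFβ+NAM replicate 1). Cxcl10, which draws T cells and is itself an interferon target, had 488, 424 and 435 CPM in TGFβ+NAM and 66.3, 63.5 and 77.3 CPM in TGFβ+SAM. The groups were far apart and tight within themselves (2.70 ± 0.11, adjusted p = 2.4e-21). Ccl5, another attractant of T cells, had 23.2, 15.2 and 20.8 CPM in TGFβ+NAM and 6.02, 5.87 and 7.29 CPM in TGFβ+SAM (1.62 ± 0.30). Ccl2, which draws monocytes, rose by 1.17 ± 0.15 and the membrane-bound Cx3cl1 by 1.02 ± 0.14. Cxcl1, a neutrophil attractant and NF-κB target, was at -0.07 (adjusted p = 0.868). Of 15 genes of the NF-κB list, 3 passed as higher (1 to 3 with 1 library left out: 1 without TGFβ+NAM replicate 2 or TGFβ+SAM replicate 1 or TGFβ+SAM replicate 2). Csf1, a macrophage growth factor, was the one with the smallest p, at 921, 831 and 879 CPM in TGFβ+NAM and 608, 646 and 618 CPM in TGFβ+SAM (0.49 ± 0.08). Complement C3 rose by 1.97 ± 0.44 and C2 by 1.41 ± 0.31.

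**Figure D3:**
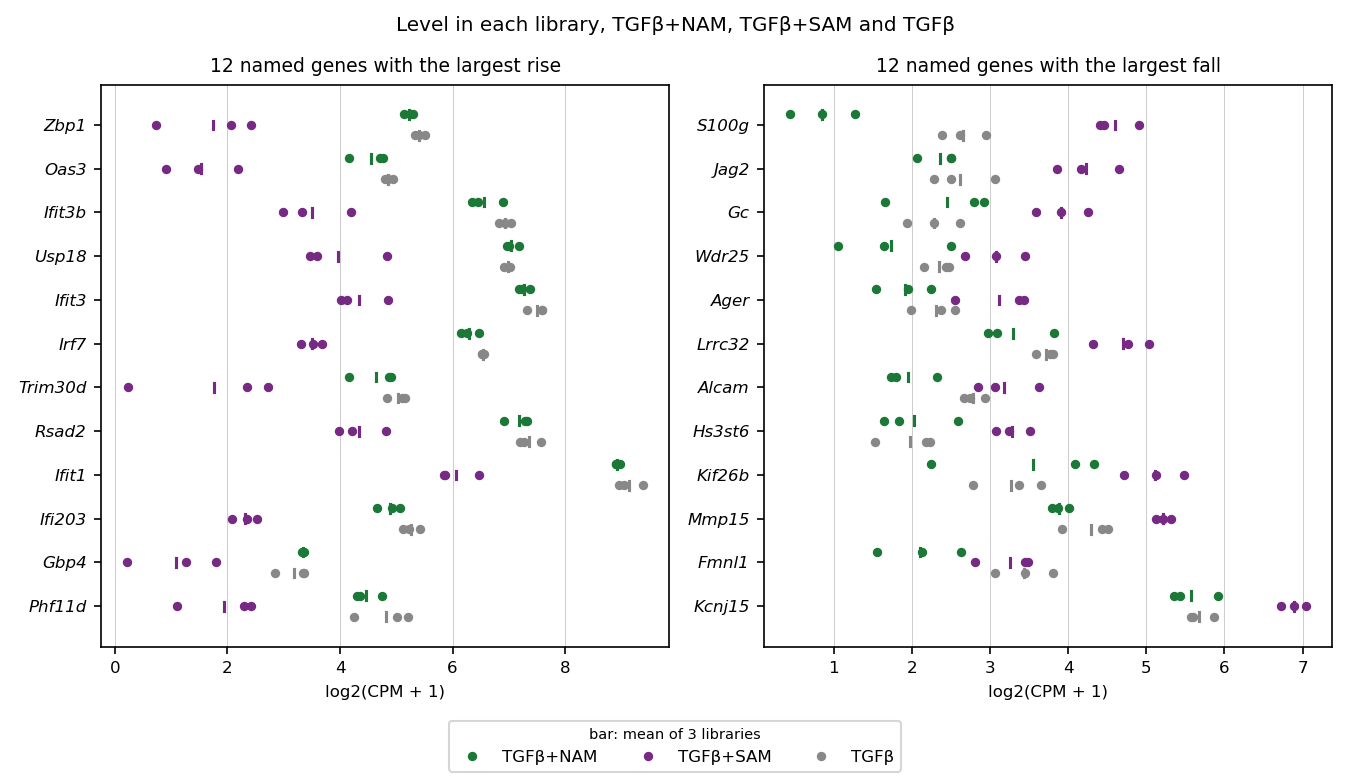
The level of the 12 named genes with the largest rise (left) and the largest fall (right) is shown per library as log2(CPM + 1), with TGFβ+NAM above TGFβ+SAM above TGFβ alone within each gene and a bar at the mean of 3 libraries. For the rising genes the TGFβ+NAM and TGFβ points lie close together and the TGFβ+SAM points far to the left, while S100g is the gene whose 3 groups stand apart from one another.

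S100g, which encodes the cytosolic calcium-binding protein calbindin, had the largest fall among genes with a mean of at least 5 CPM and no overlap. It stood at 1.42, 0.801 and 0.359 CPM in TGFβ+NAM libraries and at 21.1, 20.2 and 29.0 CPM in TGFβ+SAM libraries. The highest TGFβ+NAM library was far below the lowest TGFβ+SAM library, with a log2 change of -4.74 ± 0.38 (adjusted p = 9.6e-13). The mean with TGFβ alone was 5.38 CPM, between both. Against TGFβ alone, S100g changed by -2.62 in TGFβ+NAM (adjusted p = 0.00138) and by 2.12 in TGFβ+SAM (adjusted p = 1.1e-06), in fits that share the TGFβ libraries. The gene overlaps Ctps2 on the opposite strand, and Ctps2, looked up after the values were seen, differed by 0.10 (adjusted p = 0.858).

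Jag2, a ligand of Notch receptors, had 3.19, 4.65 and 4.66 CPM in TGFβ+NAM and 17.0, 24.1 and 13.5 CPM in TGFβ+SAM (-2.12 ± 0.32, adjusted p = 8.7e-06). Its relative Jag1, chosen after its values were seen, was far more abundant and had 214, 203 and 233 CPM in TGFβ+NAM and 370, 406 and 351 CPM in TGFβ+SAM (-0.80 ± 0.09, adjusted p = 2.3e-08). No library of either gene crossed into the other group. Kcnj15, a potassium channel, had 59.6, 42.3 and 39.8 CPM in TGFβ+NAM and 131, 118 and 105 CPM in TGFβ+SAM (-1.32 ± 0.12, adjusted p = 9.5e-11). The membrane-bound metalloproteinase Mmp15 had 15.1, 12.8 and 13.6 CPM in TGFβ+NAM and 36.0, 39.0 and 34.0 CPM in TGFβ+SAM (-1.39 ± 0.23). Lrrc32, which tethers latent TGFβ to the cell surface, had 13.1, 6.89 and 7.53 CPM in TGFβ+NAM and 19.0, 31.8 and 26.2 CPM in TGFβ+SAM (-1.49 ± 0.34). Gc, the vitamin D-binding protein (-1.55), and Alcam, an adhesion molecule (-1.47), also fell. The other 5 of the 12 each lost their call without at least 1 library. The highest adjusted p was 0.135 for Wdr25 (without TGFβ+SAM replicate 2), 0.112 for Ager (without TGFβ+NAM replicate 2), 0.0919 for Hs3st6 and 0.0921 for Fmnl1 (both without TGFβ+NAM replicate 1), and 0.129 for Kif26b (without TGFβ+SAM replicate 1).

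Nnmt itself had 31.9, 26.4 and 28.7 CPM in TGFβ+NAM and 16.6, 21.7 and 20.3 CPM in TGFβ+SAM. The groups did not overlap and the log2 change was 0.57 ± 0.17 (adjusted p = 0.029), but the call was lost without TGFβ+NAM replicate 1 (0.13), TGFβ+NAM replicate 3 (0.0603) or TGFβ+SAM replicate 1 (0.156). Mat2a makes SAM from methionine, and its mRNA is known to be held down when SAM is plentiful. It had 308, 285 and 303 CPM in TGFβ+NAM and 204, 170 and 163 CPM in TGFβ+SAM, a log2 change of 0.74 ± 0.09 (adjusted p = 4.9e-08) that passed with each library left out. Mtr, the methionine synthase that returns homocysteine to the cycle, had 50.2, 41.4 and 45.4 CPM in TGFβ+NAM and 83.8, 85.0 and 61.6 CPM in TGFβ+SAM (-0.75 ± 0.14). Ahcy, which clears the product of methylation, was at -0.50 (adjusted p = 0.47). Mat2a and Mtr were the members of the methionine and polyamine list that passed among 30 tested. Over all tested genes 4.47% were higher and 3.68% lower, so 1 rise and 1 fall in that list are near those shares. Without TGFβ+SAM replicate 3 that list had 3 rises, and it had 2 falls by DESeq2 or without TGFβ+NAM replicate 3, TGFβ+SAM replicate 2 or TGFβ+SAM replicate 3. Aox1, which oxidizes methylnicotinamide, had 18 reads in all TGFβ+NAM libraries and 27 in all TGFβ+SAM libraries, and Inmt, a relative of Nnmt, had almost none.

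Of 28 tested genes of NAD metabolism, 8 passed as higher and none as lower by edgeR or DESeq2 (0 also at an unadjusted p under 0.05), with a median of 0.25. Of these, Parp14 (1.99 ± 0.11), Parp12 (1.46 ± 0.15), Parp9 (1.20 ± 0.12, overlapping Dtx3l) and Parp10 (0.85) are ADP-ribosyltransferases that use NAD and are also known as interferon-induced genes, and Parp14 is on the effector list too. Bst1, an NAD-cleaving ectoenzyme, had 176, 182 and 184 CPM in TGFβ+NAM and 119, 117 and 103 CPM in TGFβ+SAM (0.67 ± 0.09). Nampt, the enzyme that starts NAD synthesis from nicotinamide, had 78.2, 79.5 and 80.0 CPM in TGFβ+NAM and 65.0, 49.9 and 54.5 CPM in TGFβ+SAM (0.49 ± 0.12, adjusted p = 0.00444; 0.0551 without TGFβ+SAM replicate 2). The deacetylase Sirt1 was at -0.48 (adjusted p = 0.36). Of 41 histone, DNA and RNA methyltransferase and demethylase genes tested, 1 rose and 3 fell (falls 1 to 3 with 1 library left out: 1 without TGFβ+NAM replicate 1, while rises reached 3 without TGFβ+NAM replicate 3). The demethylase Alkbh5, which removes methyl groups from RNA, was the one that rose (0.53 ± 0.12). Over all tested genes 4.47% were higher and 3.68% lower.

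Matrix genes moved in both directions. Of 17 collagens tested, 3 rose and 4 fell, with a median of -0.09. The count of falls was 1 to 3 with 1 library left out: 1 without TGFβ+NAM replicate 2 or TGFβ+SAM replicate 2. Col1a1, the main fibrillar collagen, had 99.8, 72.0 and 79.3 CPM in TGFβ+NAM and 46.4, 36.0 and 46.2 CPM in TGFβ+SAM (0.96 ± 0.16, adjusted p = 3.4e-05). Col4a5, of basement membrane, rose by 0.57 ± 0.12. The collagen VI genes Col6a1, Col6a2 and Col6a3 fell, by 0.45, 0.57 and 1.90 on the log2 scale, and Col6a2 did not pass without TGFβ+NAM replicate 2 (adjusted p = 0.0782). Without TGFβ+SAM replicate 2, Col6a2 was the only collagen fall that passed, so Col6a1 and Col6a3 lost their calls there.

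Matrix glycoproteins counted 8 higher and 3 lower of 19 tested (rises 5 to 8 with 1 library left out: 5 without TGFβ+NAM replicate 1 or TGFβ+SAM replicate 3). Postn, periostin, which links collagen fibres, had 219, 224 and 207 CPM in TGFβ+NAM and 376, 324 and 341 CPM in TGFβ+SAM (-0.68 ± 0.09, adjusted p = 9.7e-07). The proteoglycan Vcan fell by 0.91 and the laminin chain Lama5 rose by 0.59. Ccn2, connective tissue growth factor, had 3374, 3708 and 3635 CPM in TGFβ+NAM and 2575, 3190 and 2523 CPM in TGFβ+SAM (0.37 ± 0.08). The crosslinking enzyme Loxl1 had 227, 222 and 246 CPM in TGFβ+NAM and 159, 138 and 121 CPM in TGFβ+SAM (0.74 ± 0.09). Of 23 matrix enzymes and inhibitors, 5 rose and 18 did not pass (rises 3 to 7 with 1 library left out: 3 without TGFβ+SAM replicate 1 or TGFβ+SAM replicate 3), among them the plasminogen activator Plat (0.94 ± 0.18).

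Contractile and cytoskeletal genes gave 8 rises and 1 fall among 23 tested, with a median of 0.20 (rises 5 to 8 with 1 library left out: 5 without TGFβ+SAM replicate 1, and no fall without TGFβ+SAM replicate 2). S100a4, a calcium-binding protein of migrating and mesenchymal cells, stood out at 455, 397 and 352 CPM in TGFβ+NAM and 143, 144 and 151 CPM in TGFβ+SAM (1.46 ± 0.10, adjusted p = 1.1e-14). Cnn1, the actin-binding calponin of smooth muscle, had 44.9, 48.7 and 55.4 CPM in TGFβ+NAM and 21.3, 24.3 and 24.1 CPM in TGFβ+SAM (1.10 ± 0.15). Vcl, vinculin of focal adhesions, rose by 0.45 and Cald1, caldesmon, by 0.33. Acta2, α-smooth muscle actin, averaged 1257 CPM in TGFβ+NAM and 1320 CPM in TGFβ+SAM (-0.07) and was not among the genes that passed.

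Of 22 feedback and direct target genes of TGFβ, 3 rose and 1 fell, and the median was 0.00 (falls 1 to 3 with 1 library left out: 3 without TGFβ+SAM replicate 3). DESeq2 gave 2 falls. Il11, a profibrotic cytokine, had 18.6, 22.6 and 23.5 CPM in TGFβ+NAM and 2.83, 5.22 and 5.59 CPM in TGFβ+SAM (2.23 ± 0.43, adjusted p = 0.00033). Among 19 ligands and receptors, Inhba, the activin A subunit, fell and Fst, the activin trap, rose; 2 falls passed without TGFβ+SAM replicate 2 or replicate 3. Inhba had 351, 346 and 286 CPM in TGFβ+NAM and 511, 517 and 434 CPM in TGFβ+SAM (-0.57 ± 0.11, adjusted p = 0.00019). Fst rose by 0.32 ± 0.08, with groups that overlapped and a call that was lost without TGFβ+NAM replicate 3 (adjusted p = 0.089), TGFβ+SAM replicate 1 (0.0661) or TGFβ+SAM replicate 2 (0.064). In the BMP and ID list, 4 of 14 fell and 1 rose (no rise without TGFβ+NAM replicate 1, TGFβ+NAM replicate 2 or TGFβ+SAM replicate 1, and falls 2 to 4 with 1 library left out: 2 without TGFβ+SAM replicate 2 or TGFβ+SAM replicate 3). Id3, an inhibitor of differentiation and BMP target, was at 242, 188 and 203 CPM in TGFβ+NAM and 243, 281 and 314 CPM in TGFβ+SAM (-0.41 ± 0.10).

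**Figure D4:**
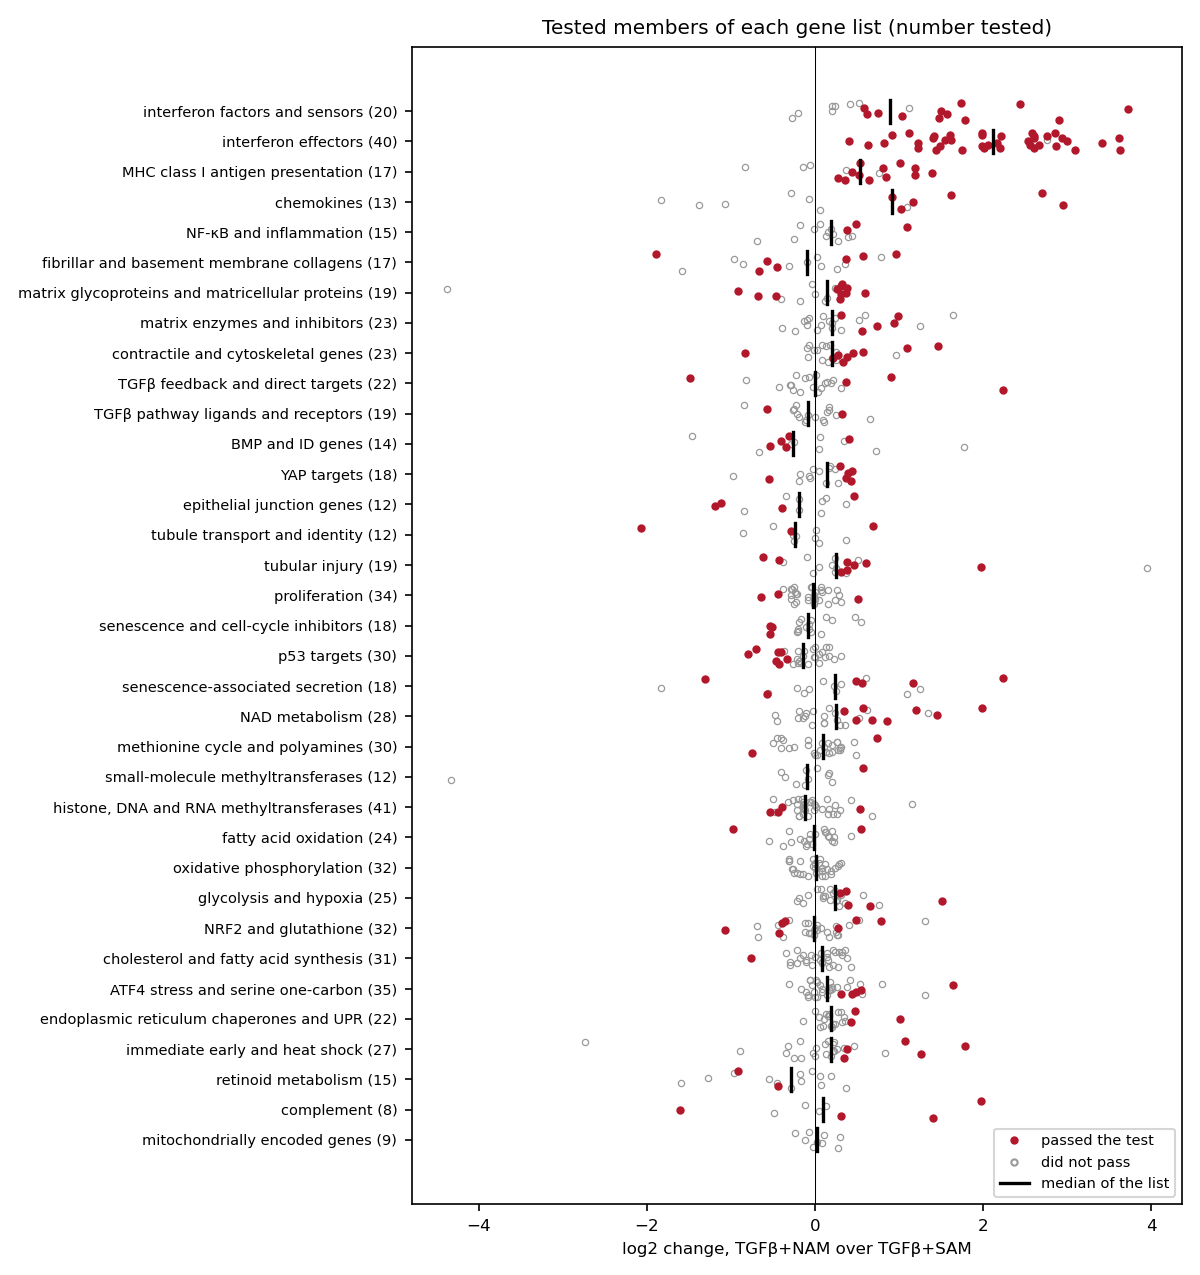
Each row is 1 gene list with the number of its tested members, each point the fitted log2 change of 1 member in TGFβ+NAM over TGFβ+SAM (red passed, open did not) and each bar the median. The interferon effectors (median 2.11), factors and sensors (0.89), chemokines (0.91) and MHC class I genes (0.54) lie to the right, whereas medians of the other plotted lists stay between -0.29 and 0.25; lists of markers of other cell types are not plotted.

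Epithelial, tubule and injury genes passed in both directions. Of 12 junction genes tested, 1 rose and 3 fell (the rise did not pass without TGFβ+NAM replicate 1 or TGFβ+SAM replicate 1, and falls were 2 to 3 with 1 library left out). Nectin4, an adhesion protein, had 24.8, 39.9 and 29.8 CPM in TGFβ+NAM and 75.7, 72.1 and 57.4 CPM in TGFβ+SAM (-1.11 ± 0.18, adjusted p = 2.2e-05). The simple-epithelium keratin Krt7 had 7.80, 7.05 and 6.46 CPM in TGFβ+NAM and 13.1, 19.4 and 16.3 CPM in TGFβ+SAM (-1.20 ± 0.28). Of 12 tubule genes, 1 rose and 2 fell (falls 0 to 2 with 1 library left out: 0 without TGFβ+SAM replicate 1). Aqp1 had 94.3, 82.2 and 102 CPM in TGFβ+NAM and 52.1, 51.1 and 69.2 CPM in TGFβ+SAM (0.69 ± 0.11, adjusted p = 3.9e-05). In the injury list 6 of 19 rose and 2 fell (rises 3 to 7 with 1 library left out: 3 without TGFβ+SAM replicate 1 or TGFβ+SAM replicate 2, and 1 fall without TGFβ+NAM replicate 1, TGFβ+NAM replicate 2, TGFβ+SAM replicate 1 or TGFβ+SAM replicate 3), with Cryab, a small heat shock protein, at 0.60 ± 0.09 and Cd44, a hyaluronan receptor, at 0.47 ± 0.09 among the rises.

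In the proliferation list 1 of 34 rose and 2 fell (the rise did not pass without TGFβ+SAM replicate 2, and falls were 2 to 3 with 1 library left out). In the main fit these counts are near the shares over all tested genes, 4.47% higher and 3.68% lower. DESeq2 and a minimum count of 30 each gave 4 falls, and leaving out TGFβ+NAM replicate 1 and NAM replicate 3 together gave 5. Before adjustment, edgeR had 3 higher and 8 lower at p under 0.05. Cdc20, an activator of mitotic exit, had 61.7, 64.1 and 70.7 CPM in TGFβ+NAM and 93.2, 113 and 101 CPM in TGFβ+SAM (-0.65 ± 0.12, adjusted p = 0.00012). Of 18 senescence genes and cell-cycle inhibitors 3 fell (1 to 3 with 1 library left out: 1 without TGFβ+NAM replicate 2), led by cyclin D1, Ccnd1 (-0.53 ± 0.10). Of 30 targets of p53, 7 fell and none rose by edgeR or DESeq2, with a median of -0.14. Without adjustment, 1 was higher and 10 lower at p under 0.05. Zmat3, an RNA-binding target of p53, had 306, 335 and 312 CPM in TGFβ+NAM and 456, 436 and 398 CPM in TGFβ+SAM (-0.44 ± 0.08). The death receptor Fas fell by 0.80 ± 0.18. These falls were under 2-fold, and 5 to 9 passed with 1 library left out.

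Among redox and stress genes, both subunits of glutamate-cysteine ligase fell. Gclc, the catalytic subunit that limits glutathione synthesis, had 97.0, 104 and 112 CPM in TGFβ+NAM and 258, 208 and 193 CPM in TGFβ+SAM (-1.07 ± 0.10, adjusted p = 3.2e-10). Its partner Gclm had 194, 187 and 205 CPM in TGFβ+NAM and 264, 262 and 246 CPM in TGFβ+SAM (-0.40 ± 0.09). Over the NRF2 and glutathione list, 3 of 32 rose and 4 fell (rises 1 to 6 with 1 library left out: 1 without TGFβ+SAM replicate 2 and 6 without TGFβ+SAM replicate 3), with the metal-binding Mt2 among the rises (0.79 ± 0.11). The chaperones Hspa5 (0.48 ± 0.07) and Hsp90b1 (0.43 ± 0.08) of the endoplasmic reticulum rose, and the other rise among 22 such genes, Dnajb9, had overlapping groups and lost its call in 3 of 6 settings with 1 library left out (adjusted p = 0.39 without TGFβ+NAM replicate 1). The stress factor Atf3 had 10.99, 16.4 and 15.1 CPM in TGFβ+NAM and 5.85, 4.24 and 3.57 CPM in TGFβ+SAM (1.64 ± 0.25), 1 of 5 rises among 35 ATF4 and one-carbon genes (3 to 7 with 1 library left out: 3 without TGFβ+NAM replicate 3). In glycolysis 5 of 25 rose (3 to 5 with 1 library left out: 3 without TGFβ+SAM replicate 2), among them Eno1 (0.65 ± 0.14) and Ldha (0.40 ± 0.10). Oxidative phosphorylation had no call among 32 genes by edgeR, where p before adjustment was under 0.05 for 4 higher and 5 lower genes, and DESeq2 called 1 lower. With 1 library left out, edgeR called 2 higher without TGFβ+SAM replicate 3 and 1 lower without TGFβ+NAM replicate 2. Ppargc1a, a coactivator of mitochondrial genes, had 13.3, 12.8 and 14.9 CPM in TGFβ+NAM and 21.1, 22.8 and 36.3 CPM in TGFβ+SAM (-0.98 ± 0.16); it shares its locus with Gm42614 on the same strand. Adh7, a retinol dehydrogenase, had 127, 110 and 99.0 CPM in TGFβ+NAM and 215, 194 and 228 CPM in TGFβ+SAM (-0.92 ± 0.10).

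The remaining lists are given by their counts, to be read beside 4.47% higher and 3.68% lower over all tested genes. Of 18 YAP targets 5 rose and 1 fell (rises 3 to 4 with 1 library left out: 3 without TGFβ+SAM replicate 1), and of 18 senescence-associated secreted factors 4 rose and 2 fell (rises 3 to 6 and falls 1 to 3 with 1 library left out: 1 fall without TGFβ+NAM replicate 1, TGFβ+NAM replicate 3 or TGFβ+SAM replicate 1). Of 27 immediate early and heat shock genes 5 rose (3 to 5 with 1 library left out: 3 without TGFβ+NAM replicate 1 or TGFβ+NAM replicate 2 or TGFβ+SAM replicate 1 or TGFβ+SAM replicate 2), among them Fos (1.07) and Hspb1, a small heat shock protein (1.78). Hspb1 passed with each library left out. Fos lost its call without TGFβ+NAM replicate 2, TGFβ+SAM replicate 1 or TGFβ+SAM replicate 2. Fatty acid oxidation had 1 rise and 1 fall among 24 genes, with 2 rises without TGFβ+SAM replicate 2 and 3 falls without TGFβ+NAM replicate 2. Cholesterol and fatty acid synthesis had 1 fall among 31 genes, with 2 falls without TGFβ+NAM replicate 3 and 1 rise by DESeq2 or without TGFβ+NAM replicate 2. Retinoid metabolism had 2 falls among 15 genes. Complement had 3 rises and 1 fall among 8 genes; the fall did not pass without TGFβ+NAM replicate 1, TGFβ+NAM replicate 2 or TGFβ+SAM replicate 1, and fitting the 6 libraries alone left 1 rise. Of 12 small-molecule methyltransferases Nnmt alone passed. The 9 mitochondrially encoded genes had no call by edgeR or DESeq2, with p before adjustment under 0.05 for 2 higher and 1 lower. With 1 library left out, edgeR called 2 higher and 1 lower without TGFβ+SAM replicate 3, 1 higher without TGFβ+NAM replicate 1 or replicate 3, and 1 lower without TGFβ+NAM replicate 2; without a filter on low counts it called 2 higher and 1 lower.

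Among abundant transcripts, the nuclear RNA Malat1 had 14250, 18870 and 16530 CPM in TGFβ+NAM and 9782, 9751 and 10770 CPM in TGFβ+SAM (0.71 ± 0.07). Ankrd1, a muscle and YAP target, had 4186, 4379 and 4252 CPM in TGFβ+NAM and 3084, 3064 and 3296 CPM in TGFβ+SAM (0.44 ± 0.08). The groups of these 2 genes were apart in every library. On the other side, the secreted glutathione peroxidase Gpx3 had 867, 1008 and 1115 CPM in TGFβ+NAM and 1378, 1277 and 1381 CPM in TGFβ+SAM (-0.43 ± 0.08). The developmental factor Sox4 had 819, 788 and 750 CPM in TGFβ+NAM and 1057, 1018 and 1092 CPM in TGFβ+SAM (-0.43 ± 0.07).

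Set beside TGFβ alone, the 2 arms were unlike in number. TGFβ+NAM against TGFβ gave 11 genes (0.0817% of those tested) and TGFβ+SAM against TGFβ gave 986 (7.32%), in fits that share the 3 TGFβ libraries. The 11 were higher for Egr1, Txnip, Ccn1 and Ccn2 and lower for Adh7, Npnt, S100g, Rbm47, Lgals3, Adora1 and Sept4, and they are named because they are all of the calls of that contrast. For the interferon effectors the median log2 change was -0.13 in TGFβ+NAM against TGFβ, where no effector was among the 11 calls, and -2.27 in TGFβ+SAM against TGFβ, with 40 lower. The contractile list had 0 calls in TGFβ+NAM against TGFβ, and 2 higher and 6 lower in TGFβ+SAM against TGFβ. Glycolysis had 0 calls in the first, and 0 higher and 8 lower in the second. Matrix glycoproteins had 2 higher and 0 lower in the first, and 2 higher and 3 lower in the second. Cxcl10 changed by 0.12 in TGFβ+NAM and by -2.58 in TGFβ+SAM, Jag2 by -0.36 and 1.76, Gclc by -0.33 and 0.74, and S100a4 by 0.28 and -1.18. Adh7 changed by -0.64 (adjusted p = 0.00138) in TGFβ+NAM and 0.28 (adjusted p = 0.0887) in TGFβ+SAM. The count of 11 was sensitive: it was 0 when only the 6 libraries of that contrast were fitted, with 745 genes at an unadjusted p under 0.05, and 39 with DESeq2.

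The same pair of treatments without TGFβ used 6 other libraries, 3 with NAM and 3 with SAM. NAM against SAM gave 1937 genes (14.4%), 1054 higher and 883 lower. Of the 602 genes higher in TGFβ+NAM than in TGFβ+SAM, 545 (90.5%) were also higher in NAM than in SAM, 313 passed in the same direction and 4 passed in the opposite one. Of the 495 lower genes, 447 (90.3%) were lower in NAM than in SAM, with 252 passing and 5 passing in the opposite direction. The median log2 change of NAM over SAM was 0.43 for the 602 genes, -0.41 for the 495 and 0.00 over all tested genes. The share with the same sign over all tested genes was not counted. Both contrasts use SAM libraries numbered after the gap, and the part of preparation in this agreement was not tested. The treatment tags of SAM replicates 2 and 3 conflict with their titles, and without both the count for NAM against SAM was 639. Across all 13469 tested genes, which are not independent replicates, Pearson's r between the 2 sets of log2 changes was 0.36.

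Cxcl10 is a gene that differed as much without TGFβ. It had 105, 112 and 131 CPM with NAM and 16.7, 20.9 and 17.1 CPM with SAM, a log2 change of 2.67 against 2.70 under TGFβ. Mat2a had 256, 268 and 287 CPM with NAM and 185, 174 and 179 CPM with SAM (0.59), and Nnmt 31.3, 32.5 and 33.1 CPM with NAM and 21.9, 18.4 and 17.8 CPM with SAM (0.74, adjusted p = 0.0016). In these 3 genes no library crossed into the other group.

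The difference between both contrasts passed for 165 genes (1.23%), 72 with a higher log2 change under TGFβ and 93 with a lower one; with library totals as the scale the split was 53 and 140. Of the 602 higher genes 55 were among them and of the 495 lower genes 21. Ifit3, an RNA-binding antiviral protein, was the clearest. Under TGFβ it had 150, 145 and 164 CPM with NAM and 15.2, 16.5 and 27.8 CPM with SAM, whereas without TGFβ it had 60.2, 57.1 and 57.6 CPM with NAM and 64.2, 60.5 and 54.5 CPM with SAM. The log2 change was thus 2.94 with TGFβ and -0.04 without, a difference of 2.98 (adjusted p = 3.9e-14), and its near-copy Ifit3b gave 2.87. Of the 40 effectors, 12 had a higher log2 change under TGFβ and 1, Ifi27, a lower one. Ifi27 passed at an adjusted p of 0.0447.

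For contractile genes the contrast was wider without TGFβ. Of 23 contractile genes, 18 were higher in NAM than in SAM without TGFβ and 1 lower, with a median of 0.65, and 10 had a lower log2 change under TGFβ against 1 with a higher one. Cnn1 without TGFβ had 40.0, 43.3 and 42.3 CPM with NAM and 5.32, 4.22 and 4.66 CPM with SAM, a log2 change of 3.14 against 1.10 under TGFβ. Acta2 averaged 108 CPM with NAM and 50.4 CPM with SAM (1.10), against -0.07 under TGFβ. Postn turned over: 50.6, 57.4 and 51.7 CPM with NAM and 20.8, 19.7 and 26.4 CPM with SAM gave 1.26 without TGFβ, against -0.68 with it. Inhba likewise was higher with NAM than with SAM without TGFβ (0.93) and lower with it (-0.57). Nampt was lower with NAM than with SAM without TGFβ, at 126, 122 and 106 CPM against 177, 180 and 198 CPM (-0.65), and higher with it (0.49).

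**Figure D5:**
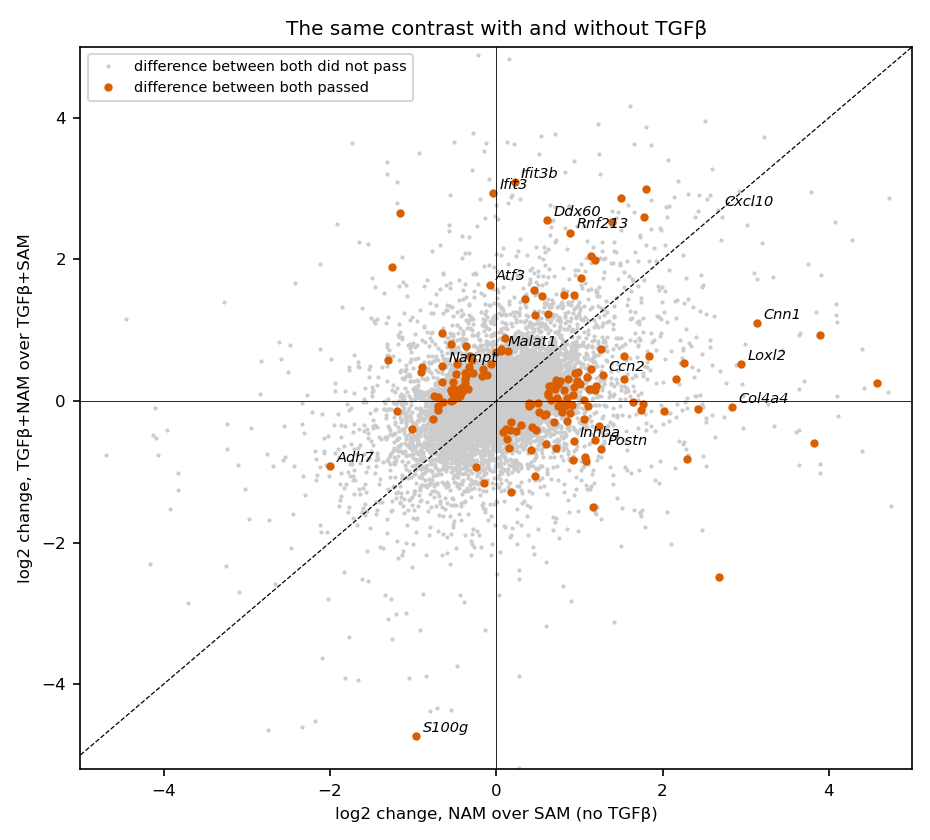
Each point is a tested gene, with the log2 change of NAM over SAM without TGFβ on the horizontal axis and of TGFβ+NAM over TGFβ+SAM on the vertical axis; orange points (165) passed the test of the difference, the dashed line marks equal change, and 20 genes lie outside the axes. Ifit3 (-0.04 and 2.94) and Ifit3b lie high on the vertical axis near zero on the other, while Postn and Inhba lie below zero and to the right.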

How the data were processed

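Sample titles gave the groups. Raw counts per gene were deposited for each library, from QuantSeq 3′ libraries, a method that reads transcripts near their 3′ end. STAR and HTSeq were named as tools, per the submitters' processing notes, which also name GRCh38, whereas all 55487 gene rows carry mouse identifiers, so the build is not settled. Versions, strand setting and filters are not given in the sources used here. Symbols came from GENCODE M21, which matched 55227 identifiers. Of 5 special rows 2 held reads: reads outside genes (22.8% to 28.2%) and ambiguous reads (0.607% to 0.779%), neither used.

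From these counts, edgeR 4.0.16 (R 4.3.3) fitted all 18 libraries with TMM scaling, a term per group and no block, with 13469 genes kept by filterByExpr (minimum count 10). Contrasts were tested with two-sided quasi-likelihood F tests and a threshold of 0.05. Benjamini-Hochberg adjustment ran over all tested genes within each contrast, and not across contrasts. CPM are scaled by TMM, and log2 changes are fitted values with their SE. Totals ran from 4171170 to 7717626 reads per library. The steps were tested on simulated data. The labels do not say that replicates were separate cultures, so p-values measure the spread between libraries, which may be technical; the smallest chi-square per degree of freedom between replicates of both groups was 5.05, so none was a copy. The sources used here name no molecular identifiers, so reads may not be separate molecules.

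Members and the 39 gene lists were chosen with earlier results of these data known. The genes named were Nnmt and related enzymes, the 12 largest rises and 12 largest falls with no overlap of libraries and a mean of at least 5 CPM, the 8 largest each way in CPM, up to 4 members of each list by p, and the 5 largest each way in dependence on TGFβ; predicted genes were left out. Other list members that are named, such as Acta2, were chosen after their values were seen. Alternatives were DESeq2 1.42.0, other scalings and filters, the contrast alone, a replicate block and libraries left out. Some genes are not reported here.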

Additional observations from a re-analysis of the deposited data

Results flagged for a closer look

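Named genes reported here are those whose log2 change of NAM over SAM differed between cells with and without TGFβ by the test of the difference itself (edgeR, adjusted p under 0.05 over 13469 genes). Each value is the log2 change of TGFβ+NAM over TGFβ+SAM minus that of NAM over SAM. A higher value can thus be a larger rise or a smaller fall, and a lower value a smaller rise or a larger fall. The NAM against SAM side includes the 2 SAM libraries with conflicting tags, and without both of these 60 of all genes passed in place of 165.

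Interferon genes with a higher change under TGFβ were Ifit3 (2.98), Ifit3b (2.87), Ddx60 (1.95), Rnf213 (1.49), Rsad2 (1.36), Usp18 (1.20), Trim30a (0.82), Parp14 (0.80), Ddx58 (0.68) and Ifitm3 (0.60). Other genes with a higher change under TGFβ were the stress factor Atf3 (1.72), the NAD synthesis enzyme Nampt (1.14), the retinol dehydrogenase Adh7 (1.08), the water channel Aqp1 (0.69), the nuclear RNA Malat1 (0.65) and the glutathione synthesis subunit Gclm (0.62). For Adh7 (-2.00 without TGFβ and -0.92 with it) and Gclm (-1.02 and -0.40) this was a smaller fall.

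Matrix, contractile and signalling genes with a lower change under TGFβ were Col4a4 (-2.93), Tnnt2 (-2.54), Loxl2 (-2.42), Cnn1 (-2.04), Postn (-1.94), Inhba (-1.50), Ccn2 (-0.91), Bmp4 (-0.66), Loxl1 (-0.52), Ccn1 (-0.42) and S100a6 (-0.42). The calcium-binding protein S100g (-3.78), lactate dehydrogenase Ldha (-0.55) and clusterin, Clu (-0.56), were lower too. For S100g this was a larger fall, -0.96 without TGFβ and -4.74 with it. Of genes named for other reasons, the interferon effector Ifi27 (-0.58), the muscle actin Acta2 (-1.17) and the matrix protein Npnt (-1.45) had a lower change under TGFβ, and the RNA-binding Rbm47 (0.69) a higher one. Tnfsf15, a TNF-family ligand, gave a fitted -6.96, which is no bound because it had no reads in any SAM library; its levels were 6.38, 13.3 and 8.25 CPM in TGFβ+NAM, 6.56, 10.9 and 6.98 CPM in TGFβ+SAM, and 2.03, 3.34 and 3.07 CPM in NAM. A log-scale shift shared by both SAM groups cancels in these values. A shift that differed between both SAM groups cannot be told apart from SAM, and neither was tested.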

How the results depend on the processing

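The count of 1097 genes was 667 (378 higher, 289 lower) when the 6 libraries were fitted alone, and 696 to 1192 with 1 library left out in turn, lowest without TGFβ+SAM replicate 1 (696) or replicate 2 (705). The 495 lower genes were 286 to 516, lowest without TGFβ+SAM replicate 2, and 294 without replicate 1. DESeq2 gave 1284. Replicate numbers did not pair the libraries (correlations of same-numbered deviations from -0.05 to 0.02), and the replicate block gave 1080. NAM against SAM gave 1272 to 1646 genes with 1 library left out, lowest without NAM replicate 3, and 639 without both SAM libraries with conflicting tags. The difference between both contrasts gave 265 genes with DESeq2, 249 without a filter, 119 to 317 with 1 library left out, highest without TGFβ+NAM replicate 1, and 60 without the 2 tagged libraries. TGFβ+NAM against TGFβ gave 39 genes with DESeq2, 32 without a filter, 0 from the contrast alone, 3 to 14 with 1 library left out (6, 3 and 5 without TGFβ replicates 1, 2 and 3, and 6 without TGFβ+NAM replicate 2) and 20 without TGFβ+NAM replicate 1 and NAM replicate 3. TGFβ+SAM against TGFβ gave 630 to 1068 with 1 library left out, 630 without TGFβ+SAM replicate 1 and 653 without TGFβ+SAM replicate 2 or TGFβ replicate 3. The cause was not tested, apart from fewer libraries where some were left out. Of 142 named genes that passed, 98 passed in every setting and none turned its direction. Values that did not pass changed sign: Aox1 ranged from -2.42 to 0.15 with 1 library left out (0.15 and 0.14 without the second TGFβ+NAM or TGFβ+SAM library), Pdgfrb from -0.61 to 0.80 (-0.61, -0.03 and -0.21 without TGFβ+NAM replicate 2, TGFβ+SAM replicate 2 or replicate 3), Cd2ap from -0.084 to 0.14 and Tnfsf15 from -0.16 to 0.46 (both lowest without TGFβ+NAM replicate 2). Leaving out 1 library ended calls of low genes such as Wdr25 and of abundant ones such as B2m and S100a6. At this depth a difference could not be read for genes with as few reads as Aox1 (18 in TGFβ+NAM and 27 in TGFβ+SAM).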
